A study of Mus musculus with 6 samples.

Results

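The genes described here are 10 fatty acid oxygenases of the cytochrome P450 superfamily, taken by gene symbol from the 24422 genes of the count tables of mouse pup kidney: Cyp2j5, Cyp2j9, Cyp2j11 and Cyp2j13, Cyp4a10, Cyp4a12a, Cyp4a12b, Cyp4a14 and Cyp4a32, and Cyp4f18. All 10 were present in the tables. They were chosen by their measured differences between iron-deficient and control kidneys, with an abundant relative added, so these differences are described below without a test. Kidneys came from C57BL/6 wild type pups, labelled postnatal day 15, of dams that were 8 weeks old and had eaten their diet for 1 month before mating and then until the pups were collected. In the FeD group (global nutritional iron deficiency, n = 3 kidneys) the diet held 2 to 6 ppm iron, and in the control group (n = 3 kidneys) it held 220 ppm. Neither the number of litters nor the sex of the pups was given, and differences between litters cannot be told apart from the diet.

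Cytochromes P450 carry a heme, held by a cysteine, whose iron activates oxygen with electrons from a reductase, Por, and cytochrome b5. Cyp4a enzymes hydroxylate fatty acids at or near the end of the chain, and among their products from arachidonic acid are hydroxyeicosatetraenoic acids that constrict renal vessels and change tubular sodium transport. Cyp2j enzymes, like Cyp2c enzymes, add oxygen across the double bonds of arachidonic acid to give epoxyeicosatrienoic acids, which epoxide hydrolases convert to diols. In kidney, Cyp4a and Cyp2j5 are mainly proximal tubule genes, and Cyp4a genes are textbook targets of the nuclear receptor PPAR-alpha. Cyp4f18 is an enzyme of neutrophils and other myeloid cells that hydroxylates leukotriene B4.

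The coding sequence around the heme-binding cysteine is shown because it places the genes in families and shows which of them a read can tell apart. Capitals mark the 30 bases of the heme-binding motif, with 15 bases on either side, in the coding strand of the GENCODE transcripts of NCBIM37 (mm9).
Cyp2j13: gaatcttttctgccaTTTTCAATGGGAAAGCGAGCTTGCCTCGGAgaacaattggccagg
Cyp2j9: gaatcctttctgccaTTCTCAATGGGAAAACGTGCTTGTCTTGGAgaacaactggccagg
Cyp2j5: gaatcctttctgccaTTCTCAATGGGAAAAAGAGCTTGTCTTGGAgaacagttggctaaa
Cyp2j11: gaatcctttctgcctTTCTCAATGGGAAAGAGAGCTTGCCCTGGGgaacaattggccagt
Cyp4a14: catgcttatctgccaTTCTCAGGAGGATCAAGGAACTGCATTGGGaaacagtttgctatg
Cyp4a10: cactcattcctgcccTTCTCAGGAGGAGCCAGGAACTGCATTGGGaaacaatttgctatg
Cyp4a32: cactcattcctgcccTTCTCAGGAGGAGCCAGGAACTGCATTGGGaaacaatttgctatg
Cyp4a12a: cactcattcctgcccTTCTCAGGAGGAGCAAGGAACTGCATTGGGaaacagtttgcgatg
Cyp4a12b: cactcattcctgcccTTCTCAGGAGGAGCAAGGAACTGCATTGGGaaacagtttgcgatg
Cyp4f18: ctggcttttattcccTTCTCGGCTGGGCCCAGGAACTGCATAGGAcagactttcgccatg
Over these 60 bases Cyp4a10 and Cyp4a32 were identical to each other and to Cyp4a31, a neighbour that is not among the 10 genes, and Cyp4a12a was identical to Cyp4a12b. Over the whole coding sequence Cyp4a10 shared 97.2% of aligned bases with Cyp4a32 and 96.6% with Cyp4a31, Cyp4a12a shared 98.5% with Cyp4a12b, and Cyp4a14 shared 75.1% with Cyp4a10. The Cyp2j genes were further apart, at 74.9% (Cyp2j5 with Cyp2j11) to 80.2% (Cyp2j13 with Cyp2j9) among the 4 described here. Only uniquely mapped reads of 100 bases were counted, so exact copies of this length went uncounted. Of all windows of 100 bases in its transcripts, an exact copy elsewhere in the genome or in another gene's transcripts was found for 36.8% in Cyp4a12a, 36.2% in Cyp4a12b, 20.1% in Cyp4a32, 11.6% in Cyp4a10 and 7.34% in Cyp4a31. No such copy was found for Cyp4a14, the 4 Cyp2j genes or Cyp4f18. Counts of the Cyp4a genes with copies may therefore be too low, and whether reads with a mismatch were exchanged between them was not tested.

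The libraries held 13732173 to 20853293 counts on genes. Of the 10 genes, 9 passed edgeR's filter on low counts, which Cyp4a12a did not, and 15145 genes were tested in all. FeD kidney 2 stood apart, with 16314 summed normalized counts over 9 adrenal cortex genes. The other FeD kidneys held 484.9 and 938.3, and the control kidneys 351.4 to 1600. Control kidney 1 held the 1600, of which Hsd3b1 gave 989. Its Cyp21a1 (4.79) and Star (166) were near those of the other control kidneys (11.1 and 6.23, 157 and 125), against 3443 and 3658 in FeD kidney 2. Both kidneys are called those with adrenal transcripts below for their sums alone, and only FeD kidney 2 was high in Cyp21a1 and Star. Transcripts of 4 Y-linked genes were abundant in control kidney 3 and in FeD kidneys 1 and 2 (4020 to 4377 summed counts) and nearly absent from the other 3 kidneys (0 to 22), so the FeD group held 2 kidneys of the first kind and the control group 1. All 23 proximal tubule markers and all 9 markers of other kidney segments and cells had counts in every library. Tfrc, the transferrin receptor, whose mRNA is stabilised when cells are short of iron, was lower in FeD kidneys (log2 fold change -0.47, adjusted p = 0.0021 by edgeR's quasi-likelihood test). This check of the diet thus went opposite to the direction that iron shortage in the cells would give, and the reason was not tested.

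Of the 9 genes that passed the filter, 7 were at least 2-fold higher in FeD kidneys, 1 (Cyp2j5) was lower by less than 2-fold, and 1 (Cyp2j11) showed groups that overlapped. Of all genes tested, 4.83% were at least 2-fold higher and 6.19% at least 2-fold lower. The median log2 fold change of the 9 genes was 1.799, and that of all genes tested was -0.00177. Cyp2j13, Cyp4a12b, Cyp4a32 and Cyp4f18 passed the filter through their counts in FeD kidneys, so a rise was nearly built in for them. With at least 10 counts required in every kidney, 3 genes were at least 2-fold higher and the median of those left was 1.06. Without control kidney 1 and FeD kidney 2, the kidneys with the highest sums over the adrenal cortex genes in their groups, the median of the 9 genes was 1.57 and 6 were at least 2-fold higher. The groups did not overlap in 8 of the 9 genes, 7 with every FeD kidney above and 1 with every FeD kidney below. Of all genes tested, 28.4% lay above and 29.7% below in this way, and because the genes were picked for these differences nothing is read from the shares.

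**Figure D1:**
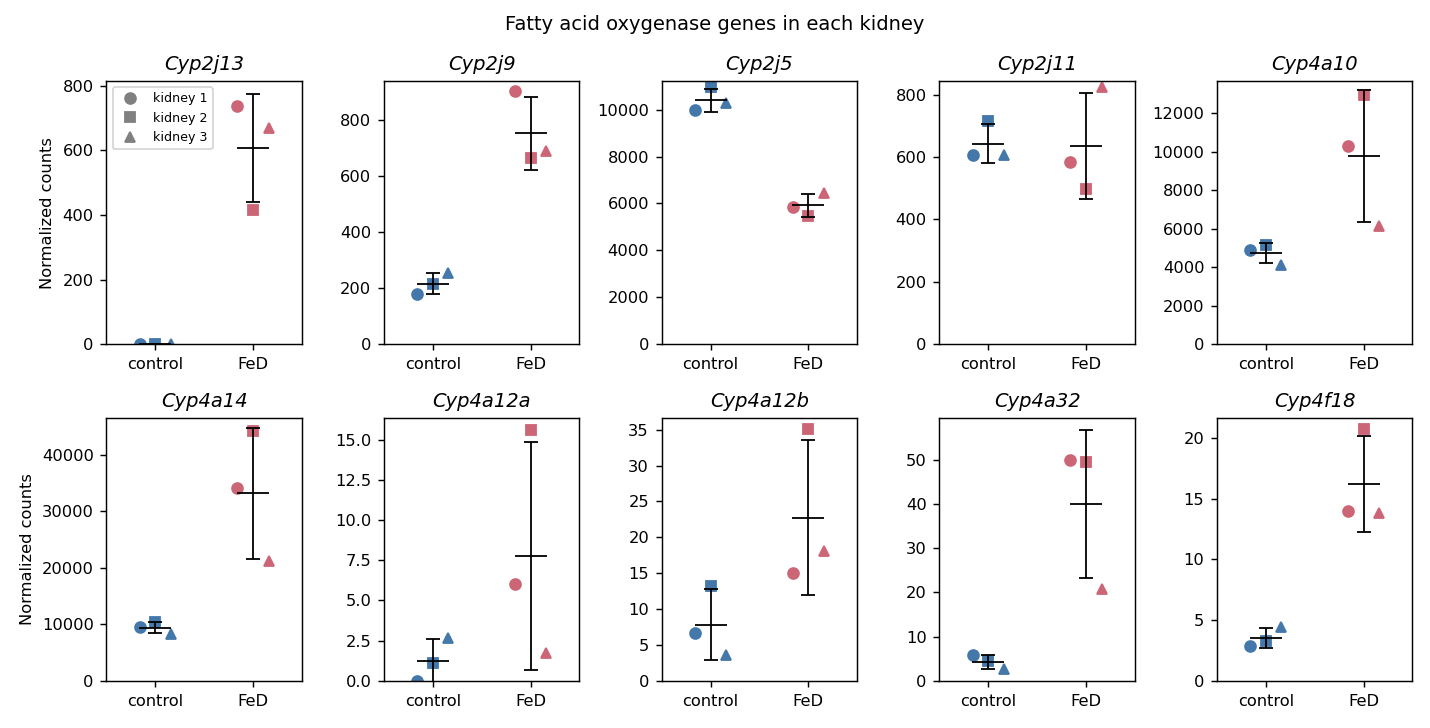
Normalized counts (vertical axes, linear, each from 0) of the 10 genes in 3 control (blue) and 3 FeD (red) kidneys; symbols give the kidney number, horizontal bars the mean and error bars the SD. FeD kidneys lie above all control kidneys for Cyp2j13, Cyp2j9, Cyp4a10, Cyp4a14, Cyp4a12b, Cyp4a32 and Cyp4f18, and below them for Cyp2j5.

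Among the epoxygenase family, Cyp2j5 (chromosome 4, 96295464 to 96330845, minus strand) is the Cyp2j gene known for its abundance in kidney. It stood at 9997, 10944 and 10274 normalized counts in control kidneys and at 5853, 5483 and 6452 in FeD kidneys. All FeD kidneys were low, with little spread in either group. The log2 fold change was -0.81 (standard error 0.08), a control mean 1.75 times the FeD mean, and it ranged from -0.86 to -0.74 as each kidney was left out in turn.

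Cyp2j9 (chromosome 4, 96235120 to 96258269, minus strand), a relative of Cyp2j5 first known from brain, stood at 179, 216 and 254 normalized counts in control kidneys and at 904, 666 and 691 in FeD kidneys. The lowest FeD kidney was well above the highest control kidney. The log2 fold change was 1.799 (standard error 0.16), and 1.66 to 1.93 with a kidney left out. In every FeD kidney Cyp2j9 counts were 10.7% to 15.4% of those of Cyp2j5, against 1.79% to 2.48% in control kidneys.

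Cyp2j13 (chromosome 4, 95694225 to 95744237, minus strand) was at the edge of detection in control kidneys, with 2, 1 and 1 raw counts, below the floor of 3 counts in each library. FeD kidneys held 737, 321 and 774 raw counts. The total of 1832 counts in FeD kidneys against 4 in control kidneys gave a ratio of 480, with a 95% interval of 187 to 1760 that covers counting error only. The fitted log2 fold change of 8.74 (standard error 0.39) depended on the prior count. It was 7.53 with a prior count of 2, and 9.32 without both kidneys that held adrenal transcripts. The transcript held no window with an exact copy elsewhere, and the Cyp2j gene of closest sequence among those compared was Cyp2j9. Whether misplaced reads with a mismatch are among the Cyp2j13 counts was not tested.

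Cyp2j11 (chromosome 4, 95961199 to 96015353, minus strand) stood at 608, 716 and 607 normalized counts in control kidneys and at 585, 497 and 826 in FeD kidneys. The groups overlapped, FeD kidney 3 being the highest of all and FeD kidney 2 the lowest. The log2 fold change was -0.01 (standard error 0.18), and it ran from -0.23 without FeD kidney 3 to 0.16 without FeD kidney 2. The only other Cyp2j gene that was tested, Cyp2j6, had log2 fold change 0.13 ± 0.07 (standard error; adjusted p = 0.15, edgeR's quasi-likelihood test).

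The Cyp2j genes lie side by side on chromosome 4, 7 genes over 637 kb of the mm9 assembly and all on the minus strand, yet their values ran in different directions. From one end of the cluster to the other, Cyp2j13 was far higher in FeD kidneys, Cyp2j11 and Cyp2j6 differed little, Cyp2j9 was higher, and Cyp2j5 was lower. Cyp2j9 and Cyp2j5, at opposite ends of the range of changes apart from Cyp2j13, are next to each other, with starts 60.3 kb apart.

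**Figure D2:**
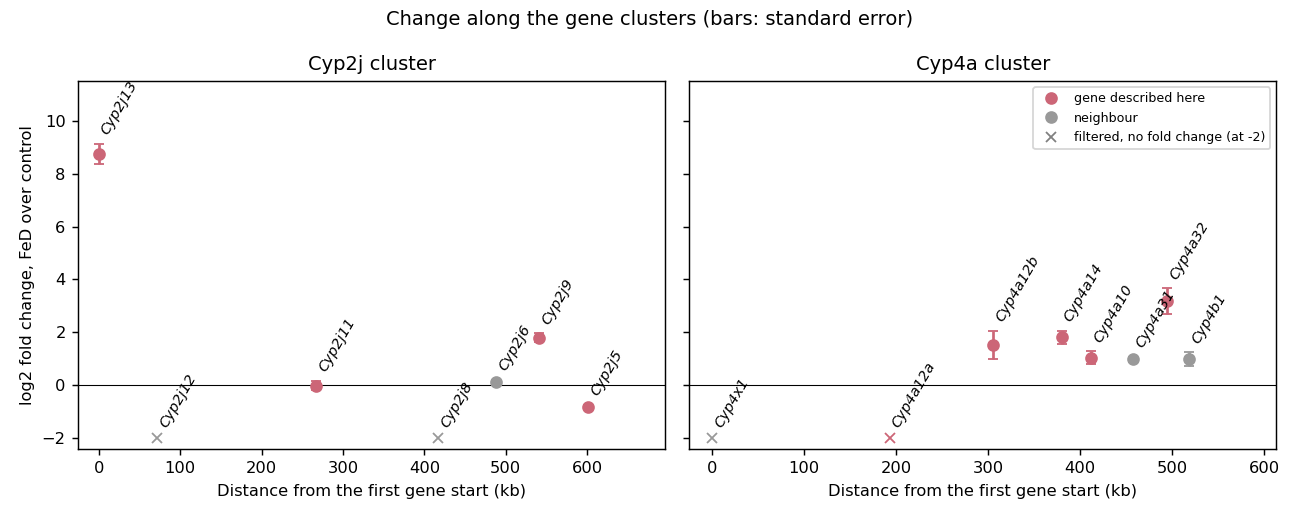
Log2 fold change (FeD over control, vertical axis) against distance from the first gene start (kb, horizontal axis) in the Cyp2j cluster and in the Cyp4a cluster, with standard errors as bars; red points are the genes described here, grey points their neighbours and crosses genes removed by the filter. Cyp2j genes lie on both sides of 0, from -0.81 for Cyp2j5 to 8.74 for Cyp2j13, whereas all 6 tested genes of the Cyp4a cluster lie between 0.98 and 3.18.

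The bases before the start of 3 Cyp2j genes are shown because these neighbours differed in direction. They come from the RefSeq promoter table (GRCm38.p6), minus strand, 250 bases up to the start, with AGGTCA, the core motif that nuclear receptors such as HNF4 and PPAR-alpha recognise, in capitals.
Cyp2j13, chr4:96077541-96077790: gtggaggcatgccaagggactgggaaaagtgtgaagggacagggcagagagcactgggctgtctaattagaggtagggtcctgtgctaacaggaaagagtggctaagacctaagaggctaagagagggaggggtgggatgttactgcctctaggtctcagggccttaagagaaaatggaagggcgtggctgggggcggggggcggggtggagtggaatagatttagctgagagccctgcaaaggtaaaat
Cyp2j9, chr4:96591486-96591735: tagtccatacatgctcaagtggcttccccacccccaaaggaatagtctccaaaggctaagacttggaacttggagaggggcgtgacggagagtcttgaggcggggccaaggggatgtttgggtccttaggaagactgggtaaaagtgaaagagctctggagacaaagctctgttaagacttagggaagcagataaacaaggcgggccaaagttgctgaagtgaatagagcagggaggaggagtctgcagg
Cyp2j5, chr4:96664120-96664369: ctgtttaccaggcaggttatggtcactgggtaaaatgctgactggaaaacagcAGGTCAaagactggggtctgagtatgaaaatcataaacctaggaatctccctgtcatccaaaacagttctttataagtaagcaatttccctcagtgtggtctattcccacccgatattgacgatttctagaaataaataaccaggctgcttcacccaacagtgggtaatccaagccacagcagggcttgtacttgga
The table held promoters of 6 of the 10 genes (the 4 Cyp2j genes, Cyp4a32 and Cyp4f18). Both strands of 300 bases, 250 before and 50 after the start, were searched for AGGTCA and for its direct repeat with any 1 base between the copies, which contains AGGTCA, and the gene strand for TATAAA. Cyp2j5 alone of the 6 held an AGGTCA, 197 bases before its start on the gene strand, and none of the 6 held the direct repeat or TATAAA. Among all 32851 promoters of the table, 16.3% held AGGTCA, 0.0396% the direct repeat and 8.32% TATAAA. These are letters in a short window and say nothing about binding.

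Because Cyp2j5 was by far the most abundant Cyp2j gene, the summed level of the 4 genes went down. Per kilobase of exon, the sum was 260, 286 and 267 CPM per kb in control kidneys and 181, 162 and 198 in FeD kidneys, a ratio of means of 0.665. Cyp2j6 is not in this sum. Its means were 20.2 CPM per kb in control and 22.1 in FeD kidneys, against 18.8 and 18.6 for Cyp2j11. The make-up of the sum shifted. Cyp2j5 gave 91.4% to 92.0% of it in control kidneys and 77.3% to 81.0% in FeD kidneys. Cyp2j9 gave 1.34% ± 0.228 (SD, n = 3) and 7.06% ± 1.27, and Cyp2j13 gave 0.00580% ± 0.00263 and 3.99% ± 0.894.

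Among the fatty acid hydroxylases, Cyp4a14 (chromosome 4, 115158805 to 115168747, minus strand) was the most abundant of the 10 genes in FeD kidneys. It stood at 9554, 10359 and 8319 normalized counts in control kidneys and at 34109, 44197 and 21171 in FeD kidneys. Every FeD kidney was above every control kidney, but FeD kidney 2 was 2.09 times FeD kidney 3. The log2 fold change was 1.82 (standard error 0.24), 1.57 without FeD kidney 2 and 2.07 without FeD kidney 3.

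Cyp4a10 (chromosome 4, 115190869 to 115206254, plus strand) stood at 4901, 5149 and 4127 normalized counts in control kidneys and at 10279, 12932 and 6117 in FeD kidneys. The order of the kidneys within each group was that of Cyp4a14, and FeD kidney 3 was only a little above the highest control kidney. The log2 fold change was 1.05 (standard error 0.24), and it fell under the 2-fold line to 0.81 without FeD kidney 2, to 0.83 without both kidneys that held adrenal transcripts, and to 0.89 with the level of Y-linked transcripts as a covariate. The neighbour Cyp4a31, from the list of other Cyp4 genes, rose by 0.98 ± 0.10 (log2 fold change ± standard error; adjusted p = 0.00017 by edgeR's quasi-likelihood test), just short of 2-fold.

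Within each group the counts of Cyp4a14 kept a nearly fixed ratio to those of Cyp4a10, 1.95 to 2.02 in control kidneys and 3.32 to 3.46 in FeD kidneys, although the level of either gene differed more than 2-fold among FeD kidneys. As a share of the summed CPM per kb of the 5 Cyp4a genes described here, Cyp4a14 gave 61.2% to 62.0% in control kidneys and 72.7% to 73.6% in FeD kidneys. The sum itself was 336, 360 and 289 CPM per kb in control kidneys and 1010, 1298 and 619 in FeD kidneys, a ratio of means of 2.97. With Cyp4a31 included, the ratio was 2.77.

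The remaining Cyp4a genes had few counts. Cyp4a32 (chromosome 4, 115273574 to 115294207, plus strand) stood at 5.75, 4.43 and 2.67 normalized counts in control kidneys and at 49.99, 49.3 and 20.7 in FeD kidneys. The groups did not overlap, and FeD kidney 3 was again the lowest of its group. The total of 112 against 13 raw counts gave a ratio of 9.03 (95% counting interval, 5.07 to 17.5), and the fitted log2 fold change was 3.18 (standard error 0.49). Its counts were 0.0647% to 0.117% of those of the near-identical Cyp4a10 in control kidneys and 0.339% to 0.486% in FeD kidneys, so Cyp4a32 was higher in FeD kidneys relative to Cyp4a10 as well. Whether misplaced reads of Cyp4a10 or Cyp4a31 are among them was not tested.

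Cyp4a12b (chromosome 4, 115084229 to 115111639, plus strand) stood at 6.71, 13.3 and 3.56 normalized counts in control kidneys and at 15.0, 35.1 and 18.1 in FeD kidneys. The lowest FeD kidney was only just above the highest control kidney. The fitted log2 fold change was 1.53 (standard error 0.52), between 1.14 without FeD kidney 2 and 2.10 without control kidney 2, and 1.05 without both kidneys with adrenal transcripts, and the total of 63 against 23 raw counts gave a ratio of 2.87 (95% counting interval, 1.76 to 4.85).

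Cyp4a12a (chromosome 4, 114971651 to 115005420, plus strand), known as the androgen-dependent hydroxylase of adult male mouse kidney, was near the floor, at 0, 1.11 and 2.67 normalized counts in control kidneys and at 6.00, 15.6 and 1.73 in FeD kidneys. The groups overlapped, and FeD kidney 2 held most of the FeD counts. The total of 20 against 4 raw counts gave a ratio of 5.24 (95% counting interval, 1.76 to 21.1), and the filter left the gene without a fitted fold change.

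The 2 groups held different numbers of kidneys with Y-linked transcripts, and the ratios of Cyp4a14 and Cyp4a10 differed between the 2 kinds of kidney. Their levels did not go 1 way with these transcripts. Control kidney 3 was the lowest control kidney for both genes, whereas FeD kidneys 1 and 2 were the highest FeD kidneys. Among the kidneys with such transcripts, the mean of FeD kidneys 1 and 2 over control kidney 3 was 4.71-fold for Cyp4a14 and 2.81-fold for Cyp4a10. Among those without, FeD kidney 3 over the mean of control kidneys 1 and 2 was 2.13-fold and 1.22-fold. With 1 control kidney of the first kind and 1 FeD kidney of the second, sex and the level of a single kidney cannot be told apart. The same 2 ratios were 2.10 and 1.70 for Cyp4a31, 3.08 and 3.50 for Cyp2j9, 0.552 and 0.616 for Cyp2j5, 648 and 442 for Cyp2j13, and 3.91 and 4.46 for Cyp4f18. Cyp2j11 changed direction, at 0.892 and 1.25. Of the genes with few counts, Cyp4a32 stood at 18.6 and 4.07, Cyp4a12b at 7.03 and 1.81, and Cyp4a12a at 4.04 and 3.12.

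Cyp4f18 (chromosome 8, 74512381 to 74533525, minus strand) stood at 2.88, 3.32 and 4.45 normalized counts in control kidneys and at 14.0, 20.8 and 13.8 in FeD kidneys. The groups did not overlap at this low level. The total of 46 against 11 raw counts gave a ratio of 4.38 (95% counting interval, 2.24 to 9.39), and the fitted log2 fold change was 2.12 (standard error 0.40), or 1.69 with a prior count of 2 and 1.8 without both kidneys with adrenal transcripts. On the opposite strand, Zfp961 covers 9.76% of its exon bases. Counts of Zfp961 were 384, 387 and 423 in control kidneys and 373, 432 and 338 in FeD kidneys after normalization (log2 fold change -0.07, adjusted p = 0.64 by edgeR), and whether its reads reached Cyp4f18 was not tested.

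Since Cyp4f18 marks myeloid cells, a list of 20 neutrophil and myeloid genes is set beside it. Of these, 19 were in the tables and 15 were tested, of which 3 rose at least 2-fold (Retnlg, Itgam and Cd68) and 1 fell (Mmp9), where 4.34% and 5.69% of all genes tested did so. At any fold 4 rose and 2 fell, where 22.4% and 23.3% of all genes tested did so, and the median log2 fold change was 0.52. Retnlg was no longer called without both kidneys with adrenal transcripts (1.57, adjusted p = 0.070 by edgeR). Their summed normalized counts were 2337 to 2996 in control kidneys and 2362 to 2897 in FeD kidneys, sums to which Csf1r, a macrophage gene that fell by 0.45 on the log2 scale (adjusted p = 0.006 by edgeR), gave 1373 to 1444 and 904 to 1179, and Ly6g was at 0 in 5 of 6 kidneys. Control kidney 2 had more Mpo (58.6 normalized counts) and Ngp (99.6) than any other kidney, and its Cyp4f18 value of 3.32 lay between those of the other control kidneys. It also had the most S100a8 (89.6) and S100a9 (116) of its group. S100a8 (105, 187 and 57.0 in FeD kidneys) and S100a9 (105, 197 and 63.9) overlapped between groups but were highest in FeD kidney 2, as Cyp4f18 was. Their log2 fold changes were 1.53 and 1.26 (adjusted p = 0.10 and 0.18 by edgeR). In 5 of the tested genes every FeD kidney was above the control kidneys, where 28.4% of all genes tested lay so. Of these, Retnlg (13.0, 29.9 and 13.8 in FeD kidneys) and Cxcr2 (64.0, 68.8 and 50.9) were highest in FeD kidney 2, as Cyp4f18 was. Itgam, Cd68 and Cd14 were highest in FeD kidney 3. The part of myeloid cells in the Cyp4f18 values was not tested.

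**Figure D3:**
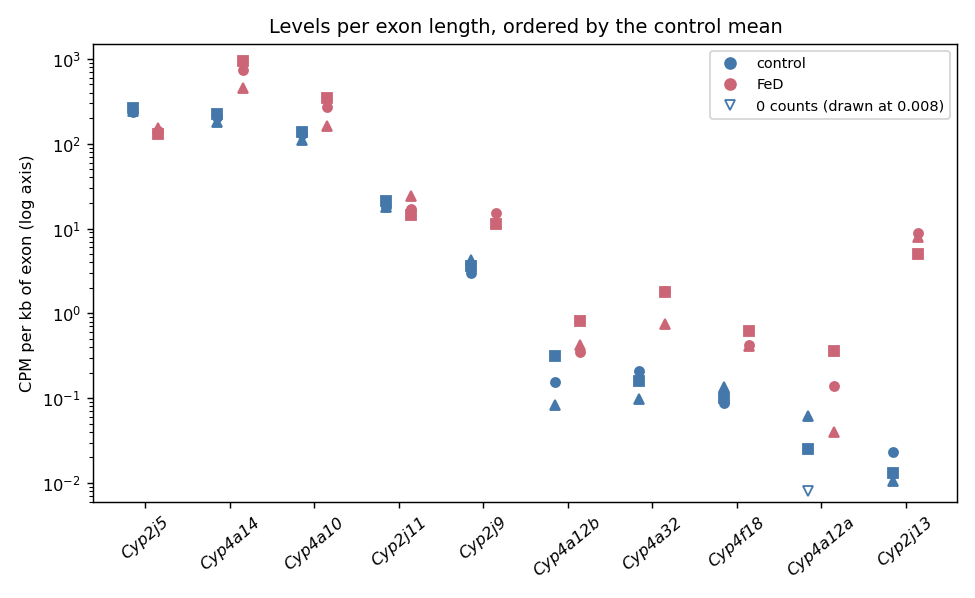
CPM per kb of exon (log axis) for each kidney, genes ordered by the control mean; blue symbols are control and red symbols FeD kidneys, and the open triangle marks a kidney with 0 counts. Cyp2j5 leads in control kidneys at 248.5, Cyp4a14 leads in FeD kidneys at 713.9, and Cyp2j13, last in control kidneys, reaches 7.25.

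Per exon length, the order of levels differed between diets. In control kidneys Cyp2j5 led with 248.5 ± 11.6 CPM per kb (mean ± SD, n = 3), followed by Cyp4a14 with 202.6 ± 22.1, Cyp4a10 with 125.5 ± 14.2, Cyp2j11 with 18.8 ± 1.83 and Cyp2j9 with 3.63 ± 0.631. None of these neighbours in the order overlapped. Cyp4a12b, Cyp4a32 and Cyp4f18 came next at 0.107 to 0.184 CPM per kb and overlapped with one another, and Cyp4a12a and Cyp2j13, the last, overlapped as well. In FeD kidneys Cyp4a14 led with 713.9 ± 248.5, then Cyp4a10 with 259.6 ± 91.2 and Cyp2j5 with 141.6 ± 11.7, with no overlap between them. Cyp2j11 at 18.6 ± 4.97 and Cyp2j9 at 12.6 ± 2.19 overlapped, and Cyp2j13 at 7.25 ± 2.01 lay below Cyp2j9 and above the rest. Cyp4a32 overlapped with Cyp4a12b, and Cyp4a12b with Cyp4f18.

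Of 23 proximal tubule markers, all tested, 8 fell at least 2-fold and 0 rose as much, where 5.69% and 4.34% of all genes tested did so, and the median log2 fold change was -0.48. At an adjusted p under 0.05 and any fold, 14 fell and 1 rose (Cyp7b1, by 0.91), where 23.3% and 22.4% of all genes did so, and 8 did not pass. Their summed normalized counts were 362301 to 389128 in control kidneys and 272618 to 301790 in FeD kidneys, with none of the markers at 0. To these sums Slc34a1 gave 68147 to 74285 in control and 13453 to 17767 in FeD kidneys. Kap gave 134451 to 144434 and 127652 to 160169. Slc34a1, the main phosphate transporter of the proximal tubule, fell by 2.22 on the log2 scale (adjusted p = 1.7e-05 by edgeR) and Slc5a2, a glucose transporter, fell by 4.89 (adjusted p = 3.3e-06), whereas Kap, an abundant androgen-regulated tubule gene, had a log2 fold change of 0.03 (adjusted p = 0.85). In such whole-kidney RNA, fewer cells of a type and less RNA per cell cannot be told apart, and the part of the tubule markers in the lower Cyp2j5 values was not tested.

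The other enzymes of these pathways were examined as 8 lists holding 120 genes of the tables, of which 76 were tested. In all, 10 rose and 3 fell at least 2-fold at an adjusted p under 0.05, where 4.34% and 5.69% of all genes tested did so. At any fold, 30 rose and 16 fell, where 22.4% and 23.3% of all genes tested did so. The median log2 fold change of the 76 genes was 0.15. The rises at least 2-fold lay in 3 lists: 7 PPAR-alpha pathway genes, 2 lipoxygenases and Acsl4.

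**Figure D4:**
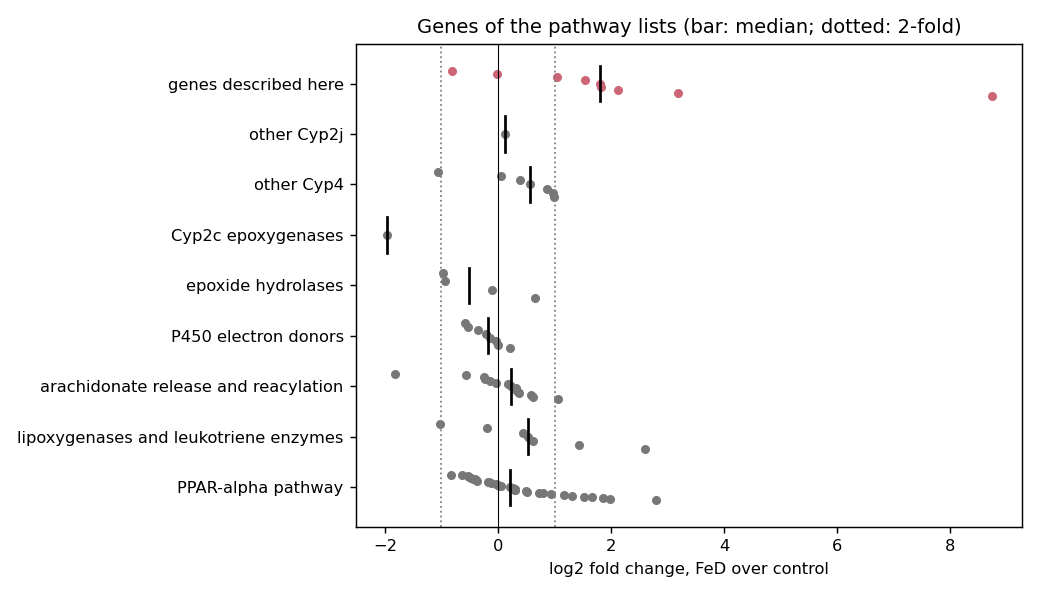
Log2 fold change (FeD over control) of each tested gene of the pathway lists, 1 row per list, with black bars for medians and dotted lines at a 2-fold change. The 9 genes described here (red) have a median of 1.799, while the medians of the lists with more than 1 tested gene lie between -0.52 for epoxide hydrolases and 0.57 for other Cyp4 genes.

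On the epoxygenase side, Cyp2c44, an arachidonic acid epoxygenase of the collecting duct and vessels, fell. It stood at 377, 399 and 174 normalized counts in control kidneys and at 115, 76.6 and 50.9 in FeD kidneys (log2 fold change -1.97 ± 0.37, adjusted p = 0.0035 by edgeR), and it was the only one of 16 Cyp2c genes with enough counts for the test. Control kidney 3 was the lowest of its group and still above every FeD kidney. Ephx2, the soluble epoxide hydrolase that removes epoxyeicosatrienoic acids, fell by 0.97 on the log2 scale (adjusted p = 0.0013), just short of 2-fold, and had a log2 fold change of -1.15 without FeD kidney 2. The microsomal Ephx1 had a log2 fold change of -0.11 (adjusted p = 0.14).

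Of the other Cyp4 genes, 7 were tested. At an adjusted p under 0.05, 5 rose by less than 2-fold and 0 fell, where 22.4% and 23.3% of all genes tested rose and fell at any fold. The 5 were Cyp4a31 and Cyp4b1, by 0.98 each on the log2 scale, Cyp4v3 by 0.87, Cyp4f17 by 0.57 and Cyp4f16 by 0.39. Cyp4f15, with few counts, had a log2 fold change of -1.06 (adjusted p = 0.10 by edgeR), with every FeD kidney below the control kidneys. Cyp4f13, the most abundant other Cyp4f gene, had a log2 fold change of 0.05 (adjusted p = 0.84), and its sign changed without control kidney 1, FeD kidney 1 or FeD kidney 2. Of 8 tested genes that supply electrons to cytochromes P450 or are heme-binding partners of them, 3 fell and 1 rose at any fold. Of all genes tested, 23.3% fell and 22.4% rose in this way. Por, the reductase itself, stood at 3280, 3289 and 3439 normalized counts in control kidneys and at 2475, 2584 and 1900 in FeD kidneys (log2 fold change -0.53, standard error 0.11, adjusted p = 0.0052 by edgeR), so the reductase was lower in the kidneys in which most of the 10 oxygenases were higher. Cyb5b, an outer mitochondrial cytochrome b5, fell by 0.35 and Cyb5r1 by 0.58, and Cyb5r3 rose by 0.22.

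Among enzymes that release arachidonic acid or return it to phospholipids, 15 were tested, of which 7 rose and 2 fell at any fold. Of all genes tested, 22.4% rose and 23.3% fell in this way. Acsl4, an acyl-CoA synthetase with a preference for arachidonic acid, rose from 1350, 1398 and 1407 to 2644, 3015 and 3050 normalized counts (log2 fold change 1.07, adjusted p = 3.5e-05 by edgeR), and Pla2g5, a secreted phospholipase A2, fell from 236, 241 and 222 to 59.0, 84.4 and 57.0 (-1.82, adjusted p = 0.00015). Both were clear of overlap. Of 7 tested lipoxygenase and leukotriene genes, Alox15 rose from 82.4, 17.7 and 13.3 to 286, 275 and 133 normalized counts (log2 fold change 2.60, adjusted p = 0.0088 by edgeR). Its log2 fold change was 3.89 without control kidney 1 and 3.76 without both kidneys with adrenal transcripts. Alox8 rose by 1.42 (adjusted p = 0.0084 by edgeR). Alox12 fell by 1.03 (adjusted p = 0.0017), and its fall was under 2-fold, between 0.92 and 0.98, without control kidney 1, FeD kidney 2 or FeD kidney 3. Control kidney 1, which held the highest control value of Alox15, also held the highest sum over the adrenal cortex genes among control kidneys. Lta4h and Ltc4s, which make leukotrienes B4 and C4, had log2 fold changes of -0.19 (adjusted p = 0.069) and 0.45 (adjusted p = 0.056).

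The PPAR-alpha list, which holds many known targets of the receptor that also controls Cyp4a, was the longest of the 8 lists. Of its 33 tested genes, 7 rose at least 2-fold and 0 fell as much, where 4.34% and 5.69% of all genes tested did so. At any fold 14 rose and 8 fell, where 22.4% and 23.3% of all genes tested did so. The median log2 fold change was 0.22. Among the 7 were Angptl4 (2.79), an inhibitor of lipoprotein lipase, Vnn1 (1.98), a pantetheinase, Pdk4 (1.85), which restrains pyruvate dehydrogenase, Ehhadh (1.53), of peroxisomal beta-oxidation, and the thioesterase Acot1 (1.31), with adjusted p between 1.5e-05 and 0.0026 by edgeR. Ppara itself rose by 0.52 (adjusted p = 0.0034). Not all known targets rose: Acadm, of mitochondrial beta-oxidation, had a log2 fold change of -0.03 (adjusted p = 0.75), and Hadha and Hadhb, of the same pathway, fell by 0.48 and 0.51.

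**Figure D5:**
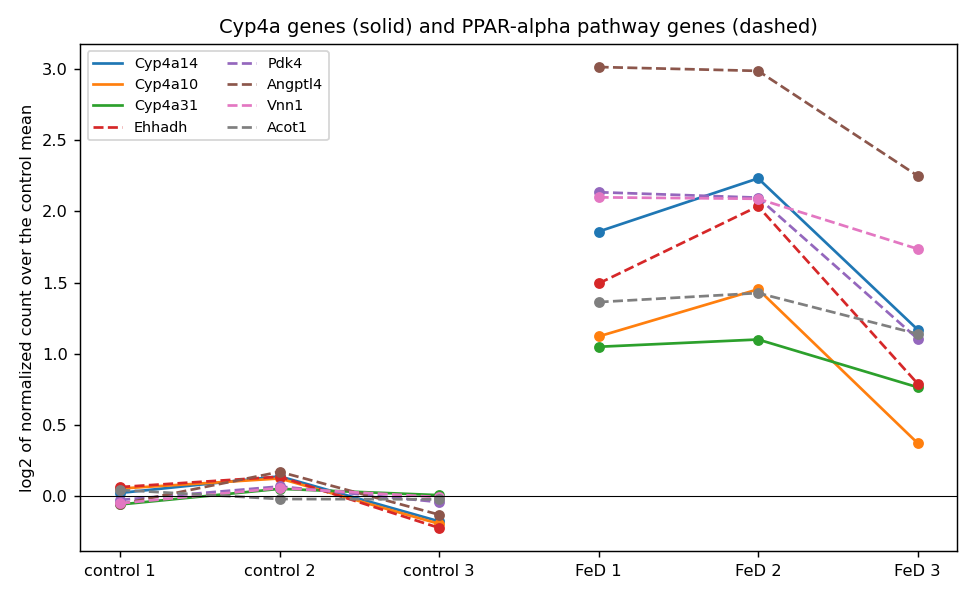
Log2 of each kidney's normalized count over the control mean for 3 Cyp4a genes (solid) and 5 PPAR-alpha pathway genes (dashed); lines only join the values of a gene within a group, since kidneys have no order. FeD kidney 3 has the lowest value of its group for each of the 8 plotted genes, and Acot1, Cyp4a31 and Vnn1 differ least among the FeD kidneys.

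Kidney by kidney, Ehhadh followed the order of Cyp4a14. Ehhadh stood at 4525, 4758 and 3709 normalized counts in control kidneys and at 12192, 17753 and 7488 in FeD kidneys. As in Cyp4a14 and Cyp4a10, control kidney 3 and FeD kidney 3 were the lowest of their groups and kidney 2 of each group was the highest. Angptl4 did not share the whole order, at 5121, 5026 and 3016 in FeD kidneys, nor did Vnn1, at 3844, 3817 and 2991.

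Likeness of pattern was measured across 12946 genes, the oxygenases described here left out, whose mean normalized count reached 50. The measure was the root mean square difference over the 6 kidneys of log2 of the normalized count plus 1, after each gene was centred on its own mean. Nearest to Cyp2j5 were Robo4 (0.0247), Rgag4 (0.0352) and Msra (0.0377). Nearest to Cyp4a14 were Arxes2 (0.102), Glt1d1 (0.119) and Adamts6 (0.131), and nearest to Cyp4f18 were Mylk3 (0.126), Apoa2 (0.134) and Ret (0.169). Cyp4f18 itself, at 2.88 to 20.8 normalized counts, lay under the mean of 50, so counting error weighs on its distances. A gene that tracked the diet alone would also score well, and the values describe these 6 kidneys only.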

How the data were processed

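RNA from 6 kidneys (3 control, 3 FeD) was measured by RNA-seq of polyadenylated RNA. The authors made single-end reads of 100 bases (CASAVA 1.8.2), trimmed them with Trimmomatic, aligned them to mm9 with TopHat2 2.0.11, kept uniquely mapped reads and counted them per gene with HTSeq, and the deposited values are raw counts that were neither normalized nor pooled. The gene annotation and strand setting are not given in the sources used here, so genes that overlap or have near-identical copies may hold wrong counts. The genes and lists were chosen with earlier results of these data known. Genes were named by rule: every one of the 10 genes, Tfrc as a check of the diet, and genes of each list. From each list these were the 2 most abundant in control kidneys per exon length and up to 6 calls with the largest change. Not all of them are printed, in the marker lists least. Others named (Por, Cyb5r1, Cyb5r3, Cyp4b1, Cyp4v3, Cyp4f15, Cyp4f16, Cyp4f17, Ppara, Hadha, Hadhb, Cyp7b1, Ly6g, Mpo, Ngp, S100a8, S100a9, Cxcr2, Cd14, Zfp961) were chosen after their values were seen. Some genes of the PPAR-alpha list are counted but not reported here by name.

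Counts were compared in R 4.3.3 with edgeR 4.0.16 (filterByExpr, TMM, glmQLFit, glmQLFTest, prior count 0.125, Benjamini-Hochberg over 15145 genes). A call is an adjusted p under 0.05 with at least a 2-fold change; at any fold means the adjusted p alone. Normalized counts were scaled to the mean effective library size, and CPM per kb used exon lengths and positions of the NCBIM37 annotation of GENCODE, matched for 20608 symbols. The standard error is the log2 fold change over the square root of F. The depth of 13732173 to 20853293 counts puts a floor of 3 counts at 0.144 to 0.218 CPM; floors and intervals cover counting error only, as the reads have no molecular identifiers. The procedure was tested on simulated data. Nothing says whether the kidneys came from separate litters, so p-values measure the spread between these kidneys. Alternatives were DESeq2 1.42.0, other scalings, filters and thresholds, the replicate number as a block and each kidney left out; a covariate for Y-linked transcripts and the removal of both kidneys with adrenal transcripts were chosen after seeing the data.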

Additional observations from a re-analysis of the deposited data

How the results depend on the processing

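Requiring at least 10 counts in every kidney kept 5 of the oxygenases, lowered the median log2 fold change of those left to 1.06 and the number at least 2-fold higher from 7 to 3, since genes low in control kidneys were removed. Testing against a 2-fold change called 225 genes higher and 286 lower, and 4 and 1 in the pathway lists, and dropping the fold threshold called 3397 and 3527, and 30 and 16 in the lists; among the calls not made in the test against 2-fold were the falls of Cyp2c44 and Alox12 and the rises of Alox15, Alox8, Ehhadh and Acsl4. With each kidney left out in turn, 595 to 804 genes were called higher and 813 to 944 lower, 10 to 14 and 2 to 6 in the lists (6 without control kidney 3, 5 without FeD kidney 1), and the median of the oxygenases ran from 1.57 to 1.89 with 6 or 7 at least 2-fold higher. Some genes near 0 changed sign. Cyp4f13 ran from -0.0730 without FeD kidney 2 to 0.246 without FeD kidney 3, and was at -0.0662 with the Y-linked covariate and at -0.131 without both kidneys with adrenal transcripts. Pgrmc1, a heme-binding partner of cytochromes P450, ran from -0.0130 without control kidney 1 to 0.0455 without FeD kidney 3, and was at -0.00638 with no filter, at -0.0134 with the covariate and at -0.0350 without both kidneys. Acadm ran from -0.0531 without FeD kidney 3 to 0.0203 without FeD kidney 1, and Kap from -0.0580 without FeD kidney 3 to 0.116 without FeD kidney 1. The causes of these changes were not tested. DESeq2 called 652 genes higher and 823 lower.

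The replicate numbers come from the labels and do not pair the kidneys (correlations of same-numbered kidneys' deviations from their group means, -0.16, 0.00 and -0.04). With the number as a replicate block, 655 genes were called higher and 879 lower, 10 and 3 in the lists, and the median of the oxygenases was 1.76 with 6 at least 2-fold higher, Cyp4a10 being at 0.99. The depth limits statements on Cyp2j13, Cyp4a12a, Cyp4a12b, Cyp4a32 and Cyp4f18, which held 4 to 23 counts over the control kidneys.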

Other observations

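Cyp2j8, Cyp2j12, Cyp4f39, Cyp2c69, Pla2g2e and Alox12b, of the same families and pathways, had too few counts for the test but no overlap between groups. They were chosen after their values were seen, from the pathway lists, which held 120 genes of the tables with 76 tested. Of all genes tested, 28.4% had every FeD kidney above the control kidneys and 29.7% every FeD kidney below. Nothing is read from the lack of overlap. Each of the named genes fell under the floor of 3 counts in some kidney. Pla2g2e and Cyp2j12 held no more than 3 raw counts in any kidney, and Cyp2c69 held 1 in every FeD kidney. Cyp2j8, in the Cyp2j cluster between Cyp2j11 and Cyp2j6, stood at 2.88, 0 and 4.45 normalized counts in control kidneys and at 23.0, 35.1 and 6.91 in FeD kidneys. Cyp4f39 stood at 22.0, 19.9 and 9.79 in control kidneys and at 3.999, 2.60 and 5.18 in FeD kidneys. Cyp2c69 stood at 4.79, 6.64 and 3.56 in control kidneys and at 1.00, 1.30 and 0.863 in FeD kidneys. Alox12b stood at 5.75, 6.64 and 11.6 in control kidneys and at 3.00, 1.30 and 3.45 in FeD kidneys. Cyp2j12 stood at 1.92, 0 and 0.890 in control kidneys and at 2.00, 2.60 and 2.59 in FeD kidneys. Pla2g2e was at 0 in the control kidneys and at 1.00, 2.60 and 1.73 in FeD kidneys.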
